A study of Mus musculus with 11 samples.

Results

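The core proteins of the spliceosome were examined in mouse islets through the genes of the Sm proteins and snRNP-specific proteins (symbols beginning with Snrp), the Lsm proteins and the SF3A and SF3B subunits. Members were taken by symbol, as Snrp followed by letters or digits, Lsm followed by a number and an optional a or b, and Sf3a or Sf3b followed by a digit. The rule found 34 of the 32285 genes in the count table, and all 34 passed the filter on low counts. It used no measured value.

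The spliceosome removes introns from pre-mRNA and is built on small nuclear RNAs. The U1, U2, U4 and U5 RNAs each carry a ring of 7 Sm proteins, whereas U6 carries a ring of 7 Lsm proteins, Lsm2 to Lsm8. The SF3A and SF3B complexes join the U2 particle and hold it on the branch site of the intron, where Sf3b1 makes the central contact. Beta cells, like other cells, need the spliceosome to mature most of their transcripts. Lsm1 in place of Lsm8 gives a cytoplasmic ring that works in mRNA decay.

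RNA was sequenced from islets of mice labelled βZKO_Mip, given as a deletion of Zzef1 in beta cells, and of their littermate controls. Every mouse was 16 weeks old and had eaten a high-fat diet for 4 weeks, and the islets received 10 µM azoramide or DMSO, its solvent, over 24 h. Azoramide acts on the capacity of the endoplasmic reticulum to fold proteins. The groups were 3 labelled knockout libraries with azoramide, 2 labelled knockout libraries with DMSO, 3 control libraries with azoramide and 3 control libraries with DMSO. Each library pooled islets of at least 3 mice of the same genotype, and the labels neither expand Mip nor name the driver of the deletion. They call the replicates independent but do not tie pools to mice, so p-values measure the spread between these pooled libraries.

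Library totals were 16832800 to 19501813 counts. On principal components of all tested genes, the first (38.2% of the variance) separated azoramide from DMSO, and on the second (11.8%) the ends were library 2 of control islets with DMSO and library 3 of labelled knockout islets with azoramide. Zzef1 measured 72.1, 77.7 and 68.7 CPM (counts scaled to the TMM-adjusted library total) in labelled knockout islets with azoramide and 79.4 and 83.5 CPM with DMSO, against 68.1, 64.3 and 67.4 CPM in control islets with azoramide and 85.4, 109.7 and 96.5 CPM with DMSO. The gene had counts in every library and did not pass the test between genotypes (edgeR adjusted p = 0.999 with DMSO and 0.968 with azoramide), so the group is called labelled knockout below. The 8 beta cell markers summed to 129870 to 192690 CPM over all libraries, as befits islets; 3 of them were higher and 3 lower with azoramide in labelled knockout islets, and 4 and 3 in control islets. The 6 alpha cell markers (23564 to 27684 CPM with azoramide, 14324 to 16427 CPM with DMSO, 5 higher in labelled knockout and 4 in control islets) and the 13 mitochondrial genes (74067 to 92641 CPM with azoramide, 48182 to 52654 CPM with DMSO) had higher sums with azoramide. The 6 endothelial markers summed to 213.4 to 273.7 CPM with azoramide and 301.4 to 313.0 CPM with DMSO, with 3 lower in each genotype, and the 8 macrophage markers to 61.1 to 116.7 and 44.4 to 59.4 CPM. The 10 acinar markers ran from 654.5 to 6622 CPM, and their ranges with azoramide and with DMSO overlapped. No marker on these lists was at 0 in every library. The part of these markers in the results below was not tested, and in bulk islets fewer cells of a type and less RNA per cell cannot be told apart.

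Azoramide against DMSO changed 24 of the 34 genes in labelled knockout islets, where 39.8% of all tested genes changed, and 25 in control islets, where 39.0% did, mostly upward. In labelled knockout islets 19 were higher and 5 lower, where 20% of all 15093 tested genes were higher and 19.8% lower (edgeR's quasi-likelihood test, Benjamini-Hochberg adjusted p under 0.05). In control islets 20 were higher and 5 lower, with 19.3% and 19.8% of all tested genes. Of these, 18 were higher in both genotypes, 5 were lower in both, 1 (Sf3b1) passed in labelled knockout islets alone, 2 (Lsm4 and Snrpc) in control islets alone, 8 in neither, and 0 in opposite directions. The median log2 fold change over the 34 genes was 0.32 in labelled knockout and 0.32 in control islets, beside -0.00 and -0.02 over all tested genes. Levels in azoramide and DMSO libraries did not overlap for 29 genes in labelled knockout islets, 23 higher and 6 lower, where 30.2% and 31.4% of all tested genes did so, and for 24 genes in control islets, 19 higher and 5 lower, with 23.8% and 24.6%. The comparisons in the 2 genotypes share no libraries.

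**Figure D1:**
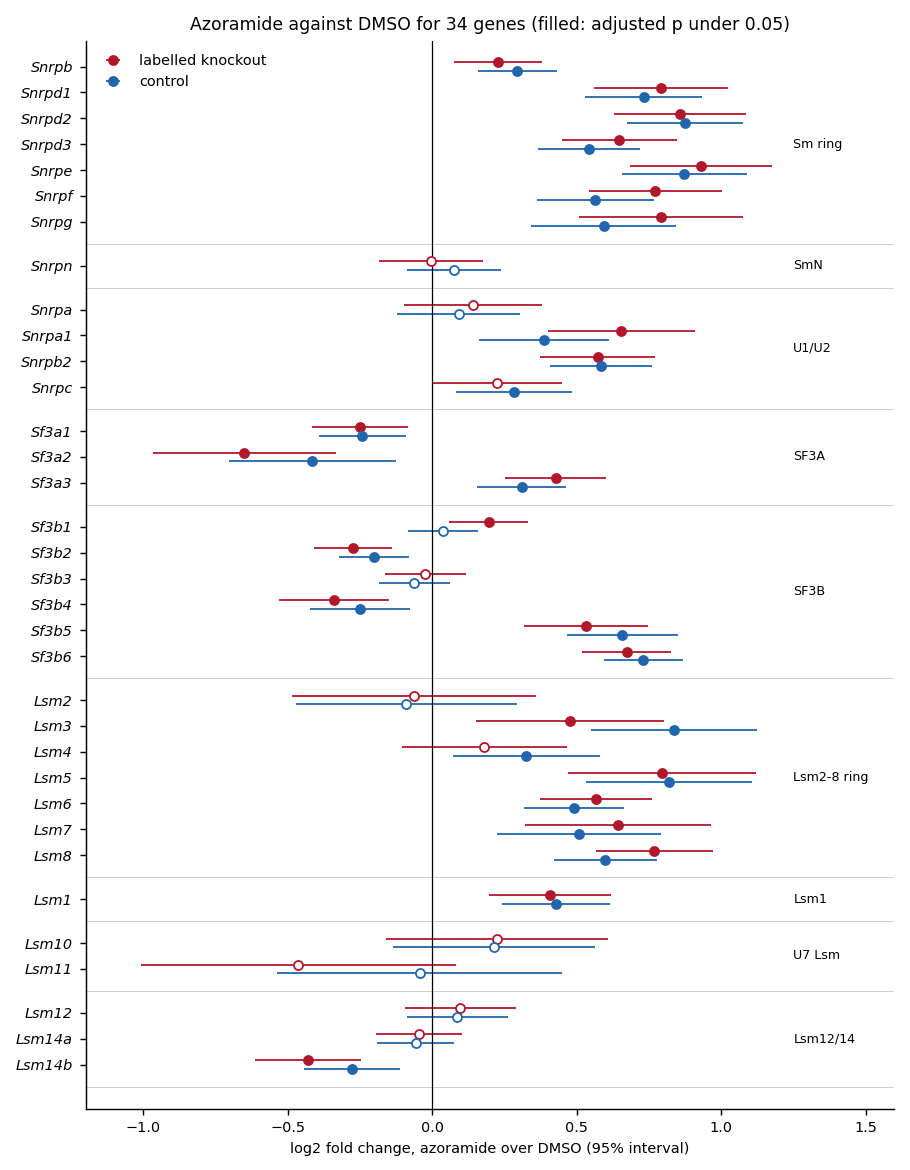
Log2 fold change of azoramide over DMSO (horizontal axis) for the 34 genes, grouped by role, in labelled knockout and control islets. Points are edgeR estimates, lines are 95% intervals and filled points have an adjusted p under 0.05; all 7 Sm ring genes lie right of 0 in both genotypes, while Sf3a1, Sf3a2, Sf3b2, Sf3b4 and Lsm14b lie left of it.

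These counts moved with the scaling and with an offset for transcript length and GC content. With plain library totals in place of TMM scaling the median of all tested genes moved by -0.16 in labelled knockout and -0.17 in control islets, and 15 of the 34 genes were higher and 7 lower in labelled knockout islets (all genes 12.4% and 30.1%) and 14 higher and 7 lower in control islets (all genes 10.8% and 32.8%). The calls that plain totals ended were Lsm1, Lsm3, Sf3b1 and Snrpb in labelled knockout islets and Lsm4, Lsm7, Sf3a3, Snrpa1, Snrpb and Snrpc in control islets, and they made Lsm14a and Sf3b3 lower in both. With an offset that removes each library's own trend on exonic length and GC content, 11 were higher and 3 lower in labelled knockout islets (all genes 12.6% and 11.3%) and 11 higher and 4 lower in control islets (all genes 11.7% and 10.8%). The median over the 34 genes was then 0.14 in labelled knockout and 0.12 in control islets. Passing in the same direction in both genotypes with and without the offset were 8 genes that rose, Snrpd1, Snrpd2, Snrpd3, Snrpe, Sf3b5, Sf3b6, Lsm6 and Lsm8, and 2 that fell, Sf3b4 and Lsm14b. The 5 lower calls in control islets became 2 without control azoramide library 1 or 3, where 2413 and 2422 genes of the whole table were lower. They became 3 without control DMSO library 1 or 2, where 2500 and 3053 were. With both libraries at the ends of the second component left out, 19 were higher and 5 lower in labelled knockout islets, and 20 higher and 4 lower in control islets.

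The promoters of 4 genes are shown. Snrpd2, Snrpe and Sf3b6 rose with azoramide and had the smallest p of the 34 in control islets. Sf3b2, a partner of Sf3b6, was lower under TMM scaling. Windows run from 250 bases before to 50 bases after the transcription start in RefSeq, on GRCm38.p6, and are written 5′ to 3′ on the gene's strand. Snrpd2 is chr7:19149588-19149887 on the plus strand, Snrpe chr1:133610231-133610530 on the minus strand, Sf3b6 chr12:4817358-4817657 on the plus strand and Sf3b2 chr19:5295408-5295707 on the minus strand. Capitals mark matches, on either strand, to GGGCGG (the GC box of Sp-family factors), CCGGAAG (an ETS-family core) or CCAAT (the CCAAT box).
Snrpd2: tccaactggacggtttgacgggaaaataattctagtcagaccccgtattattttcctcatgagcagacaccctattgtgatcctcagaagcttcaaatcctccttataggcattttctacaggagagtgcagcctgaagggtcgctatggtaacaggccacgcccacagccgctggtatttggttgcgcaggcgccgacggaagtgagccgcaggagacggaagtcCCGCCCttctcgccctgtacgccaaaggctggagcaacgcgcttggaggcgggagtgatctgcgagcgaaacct
Snrpe: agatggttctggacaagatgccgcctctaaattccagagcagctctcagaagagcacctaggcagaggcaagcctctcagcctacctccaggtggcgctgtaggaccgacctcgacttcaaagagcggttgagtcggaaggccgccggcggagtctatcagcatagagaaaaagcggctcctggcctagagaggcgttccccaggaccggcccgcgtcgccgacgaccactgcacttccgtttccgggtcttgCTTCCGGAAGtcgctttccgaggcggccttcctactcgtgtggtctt
Sf3b6: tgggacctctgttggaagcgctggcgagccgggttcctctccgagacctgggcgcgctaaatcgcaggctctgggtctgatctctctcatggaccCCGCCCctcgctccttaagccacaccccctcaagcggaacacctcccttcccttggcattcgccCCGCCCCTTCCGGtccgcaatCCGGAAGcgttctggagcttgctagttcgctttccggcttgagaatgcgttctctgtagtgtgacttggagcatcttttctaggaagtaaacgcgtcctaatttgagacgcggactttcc
Sf3b2: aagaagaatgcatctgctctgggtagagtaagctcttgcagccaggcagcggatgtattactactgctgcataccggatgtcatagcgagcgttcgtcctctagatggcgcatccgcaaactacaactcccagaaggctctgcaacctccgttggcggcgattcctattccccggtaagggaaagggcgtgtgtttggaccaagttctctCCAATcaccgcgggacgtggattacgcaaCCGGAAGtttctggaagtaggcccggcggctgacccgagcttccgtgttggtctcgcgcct
The Snrpd2 window holds 1 match to GGGCGG, and the Snrpe window holds 2 matches to CCGGAAG, which overlap on opposite strands. In Sf3b6 there are 2 matches to GGGCGG and 2 to CCGGAAG, with 1 match of each kind lying side by side without overlap, and Sf3b2 has 1 match to CCGGAAG and 1 to CCAAT. None of the 4 windows holds CACGTG or TATAAA, which were searched in the same way.

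Of the 34 genes, 27 had a window in the RefSeq table, which holds 27025 gene symbols; the first listed start was used. GGGCGG occurred in 66.7% of the 27 windows and in 35.9% of all windows, CCGGAAG in 40.7% and 9.1%, CCAAT in 40.7% and 37.9%, CACGTG in 3.7% and 7.2%, and TATAAA in 7.4% and 14.2%. These are counts of letters in a window, and no test was made of them. CCGGAAG was in the windows of Sf3b6, which rose, and of Sf3b2, which was lower under TMM scaling. With the offset Sf3b2 stood above 0, at 0.09 in labelled knockout and 0.11 in control islets. Whether a motif goes with the direction of change was not tested.

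All 7 Sm ring genes were higher with azoramide in both genotypes, where 20% of all tested genes were higher in labelled knockout and 19.3% in control islets. The median log2 fold change of the ring was 0.79 in labelled knockout and 0.59 in control islets. In each genotype plain library totals left 6 of the 7 higher (all genes 12.4% in labelled knockout and 10.8% in control islets). The offset left 4 higher (all genes 12.6% and 11.7%), and 0 were lower. Summed over the ring, the levels were 257.3, 273.2 and 239.7 CPM in labelled knockout islets with azoramide and 167.9 and 164.1 CPM with DMSO. In control islets the sum was 255.9, 258.9 and 255.8 CPM with azoramide and 166.1, 183.1 and 164.7 CPM with DMSO. Every azoramide library was above every DMSO library.

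Snrpd2 encodes SmD2 (chromosome 7, 19149722 to 19153542, plus strand). It had 35.6, 40.5 and 33.8 CPM in labelled knockout islets with azoramide, against 21.6 and 18.8 CPM with DMSO. In control islets it had 38.2, 39.7 and 37.0 CPM with azoramide, against 20.2, 23.2 and 19.3 CPM with DMSO. The groups did not overlap, and the log2 fold change was 0.86 ± 0.11 (SE) in labelled knockout islets (edgeR adjusted p = 1.1e-05) and 0.87 ± 0.10 in control islets (2.1e-06). The length and GC offset left it at 0.75 and 0.74, the highest of the 34 genes in both genotypes.

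Snrpe, for SmE, had 22.3, 23.8 and 20.3 CPM in labelled knockout islets with azoramide and 12.1 and 11.1 CPM with DMSO. Control libraries gave 24.3, 21.8 and 20.01 CPM with azoramide and 11.7, 12.2 and 12.1 CPM with DMSO. The lowest azoramide library stood well above the highest DMSO library, with log2 fold changes of 0.93 ± 0.12 (edgeR adjusted p = 1.0e-05) in labelled knockout and 0.87 ± 0.10 (5.0e-06) in control islets. Its longest transcript has 669 bases, the shortest of the 34, while its exonic length, which the offset uses, is 1372 bases. With the offset the fold changes were 0.32 (edgeR adjusted p = 0.049) in labelled knockout and 0.31 (0.038) in control islets.

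Snrpd1, for SmD1, had 42.0, 45.9 and 37.0 CPM in labelled knockout islets with azoramide and 22.3 and 25.8 CPM with DMSO. In control islets the values were 41.9, 44.9 and 41.0 CPM with azoramide and 25.2, 28.2 and 23.5 CPM with DMSO. The groups did not overlap, and the log2 fold changes were 0.79 ± 0.11 (edgeR adjusted p = 2.5e-05) in labelled knockout and 0.73 ± 0.10 (1.5e-05) in control islets. The offset lowered them to 0.34 (adjusted p = 0.029) and 0.31 (adjusted p = 0.026), still past the threshold.

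The other 4 ring genes, Snrpb (SmB), Snrpd3 (SmD3), Snrpf (SmF) and Snrpg (SmG), rose by 0.23 to 0.79 on the log2 scale in labelled knockout and by 0.29 to 0.59 in control islets. Snrpb moved least, to a mean of 60.6 ± 1.5 CPM in labelled knockout islets with azoramide against 51.8 ± 0.5 CPM with DMSO, and to 60.9 ± 4.2 CPM in control islets with azoramide against 49.7 ± 0.9 CPM with DMSO (SD, n = 3 or, for labelled knockout with DMSO, 2). Its call in labelled knockout islets was lost without azoramide library 1 of that genotype (log2 fold change 0.21, edgeR adjusted p = 0.055), its DMSO library 1 (0.24, adjusted p = 0.081) or its DMSO library 2 (0.22, adjusted p = 0.12). With the offset Snrpb was at -0.04 in labelled knockout and 0.01 in control islets, Snrpf at 0.01 and -0.15 and Snrpg at 0.33 and 0.14, none of them past the threshold. Snrpd3 passed at 0.49 and 0.39; it shares 232 exonic bases with Gucd1 on the opposite strand.

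**Figure D2:**
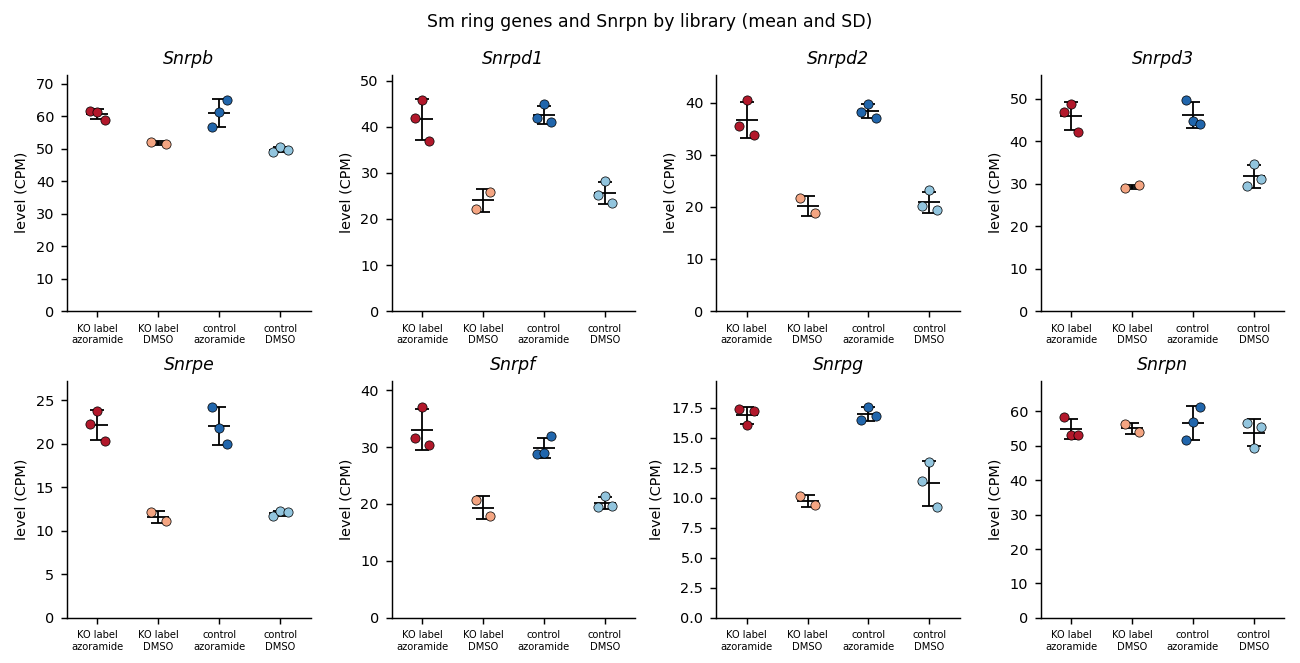
Level (CPM, vertical axis from 0) of the 7 Sm ring genes and of Snrpn in each of the 11 libraries, with group mean and SD. Azoramide libraries lie above DMSO libraries of the same genotype for every ring gene, and the groups overlap for Snrpn.

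Snrpn, the imprinted paralog of Snrpb that is best known from neurons and encodes SmN, did not pass the test in either genotype. It had 58.4, 53.3 and 53.0 CPM in labelled knockout islets with azoramide and 56.2 and 53.9 CPM with DMSO. The control libraries measured 51.7, 56.9 and 61.4 CPM with azoramide and 56.5, 49.3 and 55.6 CPM with DMSO. The groups overlapped in both genotypes, and the log2 fold changes were -0.00 (95% interval -0.19 to 0.18) in labelled knockout and 0.08 (-0.09 to 0.24) in control islets. With the offset it was lower, at -0.39 (edgeR adjusted p = 0.0030) and -0.29 (0.0090). Snrpn made up 46.5% to 48.6% of the summed Snrpn and Snrpb CPM in labelled knockout islets with azoramide and 51.2% to 51.9% with DMSO, and 47.7% to 48.6% in control islets with azoramide and 49.4% to 53.6% with DMSO; this share was not tested.

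Among the 4 proteins particular to the U1 and U2 particles, Snrpb2 and Snrpa1, the U2 pair, rose in both genotypes, and Snrpc of U1 in control islets. Snrpb2, for the B'' protein of U2, had 32.9, 36.0 and 31.3 CPM in labelled knockout islets with azoramide and 22.1 and 22.8 CPM with DMSO. Islets of controls had 34.9, 36.3 and 34.8 CPM with azoramide and 25.4, 22.0 and 23.3 CPM with DMSO. These groups did not overlap (log2 fold change 0.57 ± 0.09 in labelled knockout and 0.58 ± 0.08 in control islets, edgeR adjusted p = 0.00013 and 3.4e-05), and with the offset the values were 0.11 and 0.18, not past the threshold.

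Snrpa1, for the A' protein of U2 and partner of Snrpb2, had 23.6, 22.1 and 23.1 CPM in labelled knockout islets with azoramide and 15.0 and 14.1 CPM with DMSO. Among control libraries it read 21.7, 24.7 and 19.1 CPM with azoramide and 17.8, 17.5 and 14.8 CPM with DMSO. The log2 fold changes were 0.65 ± 0.12 (edgeR adjusted p = 0.00036) in labelled knockout and 0.39 ± 0.11 (0.0079) in control islets, and the call in control islets was lost without control azoramide library 2 (0.29, adjusted p = 0.056). With the offset it passed in labelled knockout islets alone (0.36, adjusted p = 0.041, against 0.12, adjusted p = 0.46, in control islets).

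Snrpc, for the C protein of U1, had 20.9, 20.3 and 18.7 CPM in labelled knockout islets with azoramide and 17.3 and 16.9 CPM with DMSO. In control islets it had 19.9, 23.3 and 19.8 CPM with azoramide and 17.3, 18.03 and 16.4 CPM with DMSO. The groups did not overlap in either genotype, but the test passed in control islets alone (log2 fold change 0.28 ± 0.10, edgeR adjusted p = 0.025, against 0.22 ± 0.11, 0.11, in labelled knockout islets). The control call was lost without control azoramide library 2 (0.20, adjusted p = 0.13), control DMSO library 1 (0.29, adjusted p = 0.059) or control DMSO library 3 (0.25, adjusted p = 0.082). Snrpa, for the A protein of U1, ran from 32.6 to 35.4 CPM in labelled knockout islets with azoramide and from 29.9 to 31.97 CPM with DMSO, and from 31.6 to 37.2 CPM in control islets with azoramide and from 27.7 to 37.8 CPM with DMSO, and did not pass in either.

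Under TMM scaling the SF3 complexes were split, with members of 1 complex moving in opposite directions. With the offset Sf3b4 was lower and Sf3b3, Sf3b5 and Sf3b6 higher past the threshold in both genotypes, and no SF3A gene passed in both. In SF3A, which bridges SF3B to the U2 particle, Sf3a1 and Sf3a2 were lower and Sf3a3 higher in both genotypes. Sf3a1 had 39.8, 41.1 and 40.2 CPM in labelled knockout islets with azoramide and 50.8 and 45.3 CPM with DMSO. Control libraries gave 40.2, 42.1 and 40.3 CPM with azoramide and 49.4, 50.3 and 45.4 CPM with DMSO. It fell by 0.25 and 0.24 on the log2 scale in labelled knockout and control islets (edgeR adjusted p = 0.017 and 0.012), without overlap of the groups. The call was lost in labelled knockout islets without DMSO library 1 of that genotype (-0.17, adjusted p = 0.24) and in control islets without control azoramide library 1 (-0.22, adjusted p = 0.051).

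Sf3a2 had 20.9, 17.3 and 28.0 CPM in labelled knockout islets with azoramide and 35.4 and 33.9 CPM with DMSO. The control libraries measured 23.6, 24.2 and 19.95 CPM with azoramide and 30.6, 31.4 and 28.3 CPM with DMSO. The labelled knockout azoramide libraries spread most here, with library 3 the highest, yet all lay below the DMSO libraries (log2 fold change -0.65 ± 0.15 in labelled knockout and -0.42 ± 0.14 in control islets, edgeR adjusted p = 0.0027 and 0.024). The control call did not survive removal of control azoramide library 1 (-0.44, adjusted p = 0.057), azoramide library 3 (-0.33, adjusted p = 0.11), DMSO library 1 (-0.40, adjusted p = 0.068) or DMSO library 2 (-0.38, adjusted p = 0.065). Sf3a2 shares 429 exonic bases with Plekhj1 on the opposite strand, and without a known strand setting their reads cannot be told apart.

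Sf3a3 had 39.3, 38.5 and 38.7 CPM in labelled knockout islets with azoramide and 28.6 and 29.1 CPM with DMSO. Islets of controls had 42.5, 41.2 and 37.7 CPM with azoramide and 33.0, 33.5 and 31.5 CPM with DMSO. It was higher without overlap (log2 fold change 0.43 ± 0.08 in labelled knockout and 0.31 ± 0.07 in control islets, edgeR adjusted p = 0.00053 and 0.0026). With the offset Sf3a1 stood at -0.09 and -0.10 in labelled knockout and control islets, Sf3a2 at -0.36 and -0.22 and Sf3a3 at 0.26 and 0.13, of which Sf3a3 in labelled knockout islets passed (adjusted p = 0.027).

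In SF3B the small subunits Sf3b5 and Sf3b6 rose, and Sf3b2 and the RNA-binding Sf3b4 were lower. Sf3b6, the subunit that lies at the branch-site adenosine, had 117.1, 128.9 and 112.5 CPM in labelled knockout islets with azoramide and 78.1 and 71.8 CPM with DMSO. Among control libraries it read 131.7, 120.8 and 125.3 CPM with azoramide and 77.6, 72.1 and 77.9 CPM with DMSO. This was the smallest p of the 34 genes in both genotypes (log2 fold change 0.67 ± 0.07 and 0.73 ± 0.06, edgeR adjusted p = 2.6e-06 in labelled knockout and 2.1e-07 in control islets), and with the offset it passed at 0.28 and 0.38.

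Sf3b5, a small subunit that sits against Sf3b3, had 26.3, 26.02 and 26.4 CPM in labelled knockout islets with azoramide and 16.8 and 19.5 CPM with DMSO. In control islets it had 29.1, 28.1 and 27.6 CPM with azoramide and 18.9, 18.9 and 16.0 CPM with DMSO. The groups did not overlap (log2 fold change 0.53 ± 0.10 in labelled knockout and 0.66 ± 0.09 in control islets, edgeR adjusted p = 0.00050 and 2.5e-05). Its longest transcript has 3841 bases. With the offset it passed at 0.34 in labelled knockout and 0.49 in control islets, and the part of length in its rise was not tested.

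Sf3b2 had 187.0, 189.6 and 186.8 CPM in labelled knockout islets with azoramide and 231.7 and 222.4 CPM with DMSO. Control libraries gave 189.8, 200.9 and 184.5 CPM with azoramide and 211.7, 216.2 and 232.8 CPM with DMSO. It was lower without overlap (log2 fold change -0.27 ± 0.06 in labelled knockout and -0.20 ± 0.06 in control islets, edgeR adjusted p = 0.0023 and 0.010), but with the offset it stood at 0.09 and 0.11, and the direction turned. Without control azoramide library 3 the control value was -0.17 (adjusted p = 0.058). The ratio of Sf3b2 to Sf3b6 CPM was 1.47 to 1.66 in labelled knockout islets with azoramide and 2.97 to 3.10 with DMSO, and 1.44 to 1.66 in control islets with azoramide and 2.73 to 3.00 with DMSO. These CPM carry no offset, and the ratio was not tested. With the offset both genes lay above 0 in labelled knockout and control islets. Sf3b6 stood at 0.28 and 0.38, and Sf3b2, at 0.09 and 0.11, did not pass the threshold.

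Sf3b1, the HEAT-repeat subunit that grips the branch site and is a known target of mutation in human blood cancers, was the most abundant of the 34 genes in CPM. It had 469.4, 475.6 and 469.7 CPM in labelled knockout islets with azoramide and 414.7 and 409.1 CPM with DMSO. The control libraries measured 458.7, 436.0 and 460.0 CPM with azoramide and 459.8, 403.7 and 455.6 CPM with DMSO. The test passed in labelled knockout islets (log2 fold change 0.20 ± 0.06, edgeR adjusted p = 0.023) and not in control islets (0.04 ± 0.06, 0.64), where control DMSO library 2 was the low one. With the offset it passed in neither (0.16, adjusted p = 0.054, in labelled knockout and 0.06, adjusted p = 0.43, in control islets). Plain library totals put it at 0.04 (adjusted p = 0.68) in labelled knockout and -0.13 (adjusted p = 0.091) in control islets. The labelled knockout call was lost without any one of 4 libraries of that genotype, namely azoramide library 1 (0.20, adjusted p = 0.052), azoramide library 2 (0.19, adjusted p = 0.059), DMSO library 1 (0.20, adjusted p = 0.10) and DMSO library 2 (0.18, adjusted p = 0.15). The difference between genotypes in the azoramide effect was 0.16 ± 0.09 (unadjusted p = 0.088, edgeR adjusted p = 0.999).

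Sf3b4 fell by 0.34 on the log2 scale in labelled knockout and by 0.25 in control islets (edgeR adjusted p = 0.0061 and 0.022), and with the offset by 0.40 and 0.36. Its labelled knockout call was lost without DMSO library 2 of that genotype (-0.30, adjusted p = 0.070), and its control call on removal of azoramide library 2 (-0.24, adjusted p = 0.064), azoramide library 3 (-0.24, adjusted p = 0.066) or DMSO library 2 (-0.19, adjusted p = 0.094) of that genotype. Sf3b3, the large beta-propeller scaffold, was at -0.02 and -0.06, not past the threshold, and with the offset at 0.25 (adjusted p = 0.0092) in labelled knockout and 0.21 (adjusted p = 0.014) in control islets.

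**Figure D3:**
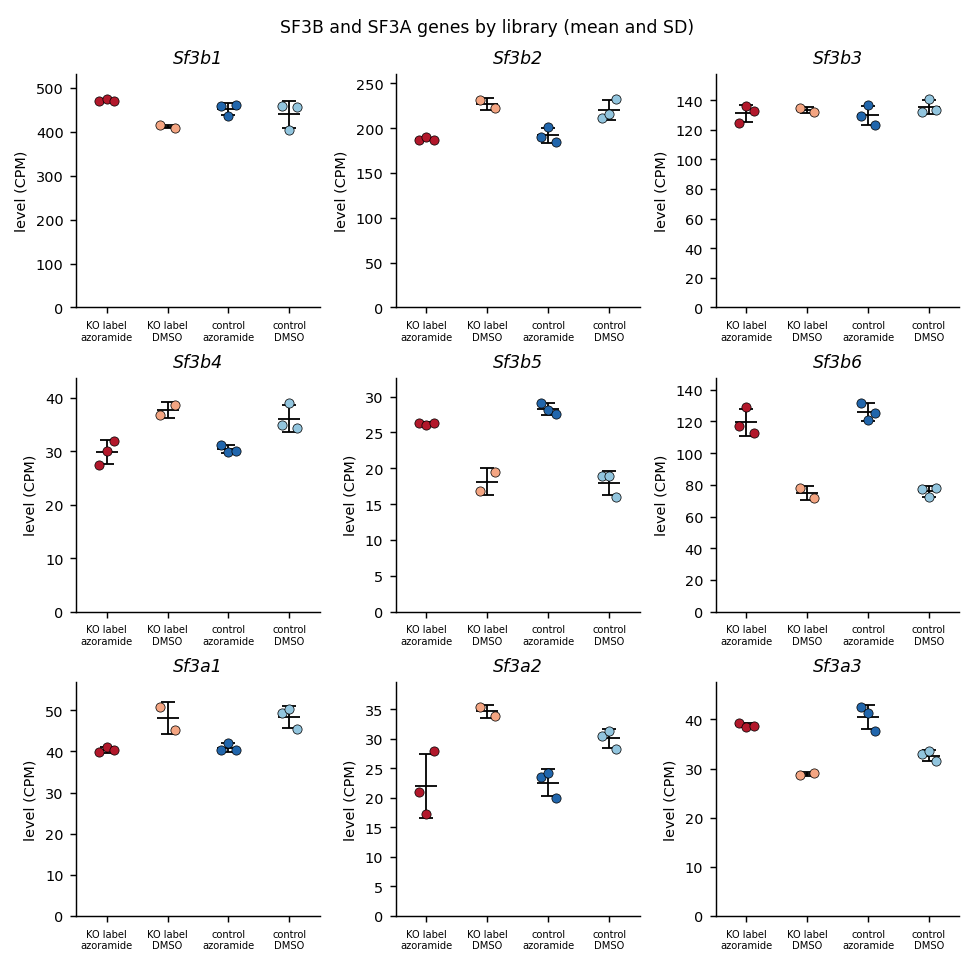
Level (CPM, vertical axis from 0) of the 6 SF3B and 3 SF3A genes in each of the 11 libraries, with group mean and SD. Sf3b5, Sf3b6 and Sf3a3 are higher with azoramide in both genotypes, and Sf3b2, Sf3b4, Sf3a1 and Sf3a2 are lower.

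Of the 7 genes of the U6 ring, 5 were higher in labelled knockout and 6 in control islets (all genes 20% and 19.3%). None was lower (all genes 19.8% in each), and the median log2 fold changes were 0.57 and 0.51. With plain library totals 4 were higher in each genotype (all genes 12.4% in labelled knockout and 10.8% in control islets). With the offset 2 were higher in labelled knockout and 3 in control islets (all genes 12.6% and 11.7%), small counts beside these shares. Lsm8, the subunit that sets the nuclear ring apart, had 30.1, 29.1 and 27.6 CPM in labelled knockout islets with azoramide and 17.4 and 16.5 CPM with DMSO. Islets of controls had 29.7, 25.995 and 29.4 CPM with azoramide and 19.0, 18.1 and 19.0 CPM with DMSO. The groups did not overlap (log2 fold change 0.77 ± 0.10 in labelled knockout and 0.60 ± 0.08 in control islets, edgeR adjusted p = 1.0e-05 and 3.1e-05), and with the offset it passed at 0.41 and 0.30.

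Lsm6 had 60.7, 61.1 and 49.1 CPM in labelled knockout islets with azoramide and 38.0 and 38.9 CPM with DMSO. Among control libraries it read 53.3, 55.7 and 58.0 CPM with azoramide and 40.5, 37.7 and 40.8 CPM with DMSO. It rose without overlap (log2 fold change 0.57 ± 0.09 and 0.49 ± 0.08, edgeR adjusted p = 0.00012 in labelled knockout and 0.00015 in control islets), and its longest transcript, at 3792 bases, is the longest of the ring.

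Lsm3 had 16.9, 18.1 and 13.5 CPM in labelled knockout islets with azoramide and 12.6 and 10.7 CPM with DMSO. In control islets it had 22.0, 21.0 and 19.8 CPM with azoramide and 13.1, 12.6 and 9.32 CPM with DMSO. It rose in both (log2 fold change 0.48 ± 0.15 in labelled knockout and 0.84 ± 0.14 in control islets, edgeR adjusted p = 0.020 and 0.00011). The labelled knockout call was lost without azoramide library 1 (0.44, adjusted p = 0.063) or 2 (0.39, adjusted p = 0.089) or DMSO library 2 (0.36, adjusted p = 0.20) of that genotype. With the offset Lsm3 stood at 0.23 (adjusted p = 0.29) in labelled knockout islets, where the call was lost, and at 0.59 (adjusted p = 0.0038) in control islets. Lsm5 had 13.0, 13.6 and 12.01 CPM in labelled knockout islets with azoramide and 8.06 and 6.81 CPM with DMSO. Control libraries gave 14.3, 13.0 and 14.2 CPM with azoramide and 7.24, 9.36 and 6.82 CPM with DMSO. Lsm5 rose by 0.80 and 0.82 on the log2 scale in labelled knockout and control islets, but has the lowest GC content of the 34 (33.95%) and, with the offset, stood at -0.10 and 0.02.

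Lsm7 rose by 0.64 in labelled knockout and by 0.51 in control islets on the log2 scale; without DMSO library 1 of the labelled knockout its value there was 0.53 (edgeR adjusted p = 0.054). With the offset Lsm7 stood at 0.41 (adjusted p = 0.062) in labelled knockout and 0.24 (adjusted p = 0.23) in control islets, and both calls were lost. Lsm4 passed in control islets alone (0.33 ± 0.12, edgeR adjusted p = 0.041, against 0.18 ± 0.14, 0.31, in labelled knockout islets), with overlapping control groups. The offset put it at -0.10 in labelled knockout and -0.02 in control islets, where the call was lost. It was also lost without any one of 8 of the 11 libraries, with values of 0.21 (adjusted p = 0.22) without control azoramide library 2, 0.32 (adjusted p = 0.10) without control azoramide library 3, 0.23 (adjusted p = 0.18) without control DMSO library 1 and 0.30 (adjusted p = 0.11) without control DMSO library 3. Among labelled knockout libraries, it was 0.32 without azoramide 1 (adjusted p = 0.056), 0.33 without azoramide 2 (adjusted p = 0.051), 0.32 without DMSO 1 (adjusted p = 0.055) and 0.32 without DMSO 2 (adjusted p = 0.055). Lsm2, at 5.28 to 7.74 CPM in every library, did not pass (log2 fold change -0.06, 95% interval -0.48 to 0.36, in labelled knockout and -0.09, -0.47 to 0.29, in control islets).

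Among the Lsm proteins outside the spliceosome, Lsm1 rose and Lsm14b fell. Lsm1, of the cytoplasmic decay ring, had 19.0, 18.2 and 18.5 CPM in labelled knockout islets with azoramide and 14.3 and 13.7 CPM with DMSO. The control libraries measured 19.6, 19.1 and 19.6 CPM with azoramide and 14.8, 14.6 and 13.9 CPM with DMSO. The replicates were close and the groups did not overlap (log2 fold change 0.41 ± 0.10 in labelled knockout and 0.43 ± 0.09 in control islets, edgeR adjusted p = 0.0034 and 0.0010), and with the offset 0.19 and 0.21 did not pass.

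Lsm14b, a repressor of translation found in cytoplasmic granules, had 41.7, 39.5 and 44.8 CPM in labelled knockout islets with azoramide and 52.0 and 61.3 CPM with DMSO. Islets of controls had 41.6, 45.2 and 42.4 CPM with azoramide and 55.4, 51.8 and 49.4 CPM with DMSO. It fell by 0.43 and 0.28 on the log2 scale (edgeR adjusted p = 0.00078 in labelled knockout and 0.0098 in control islets) and by 0.59 and 0.45 with the offset. The control value was -0.25 (adjusted p = 0.052) without control azoramide library 1 and -0.23 (adjusted p = 0.055) without control DMSO library 1. Its paralog Lsm14a had 72.7, 75.8 and 84.9 CPM in labelled knockout islets with azoramide and 80.6 and 80.1 CPM with DMSO. Among control libraries it read 82.1, 77.8 and 78.0 CPM with azoramide and 85.4, 82.7 and 79.3 CPM with DMSO. The Lsm14a groups overlapped and it did not pass.

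Lsm12 had 26.9, 28.5 and 28.7 CPM in labelled knockout islets with azoramide and 25.7 and 26.7 CPM with DMSO. In control islets it had 28.0, 27.3 and 26.2 CPM with azoramide and 25.8, 27.4 and 23.4 CPM with DMSO. It did not pass (log2 fold change 0.10 in labelled knockout and 0.09 in control islets), and with the offset stood at -0.24 in both, past the threshold in control islets (edgeR adjusted p = 0.042). Lsm10 and Lsm11 replace SmD1 and SmD2 in the ring of the U7 particle, which processes histone mRNA. Lsm10 had 8.53, 6.67 and 7.97 CPM in labelled knockout islets with azoramide and 7.24 and 5.99 CPM with DMSO. Control libraries gave 6.87, 5.88 and 7.67 CPM with azoramide and 6.29, 5.30 and 6.05 CPM with DMSO. Lsm11, the lowest of the 34, had 3.11, 3.503 and 2.505 CPM in labelled knockout islets with azoramide and 4.46 and 3.93 CPM with DMSO, and 4.46, 2.82 and 3.45 CPM in control islets with azoramide and 2.89, 4.21 and 3.94 CPM with DMSO. Neither U7 gene passed in either genotype, and Lsm11 had the widest 95% interval of the 34, -1.01 to 0.08 in labelled knockout islets.

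Levels between genes are given per kilobase of exonic length, which merges all annotated exons of a gene. It exceeds the longest transcript by unequal amounts: 11370 against 6195 bases for Sf3b1, 2052 against 858 for Snrpd1, and 861 for both in Snrpf. The order of genes below depends on this choice of length, and an order per longest transcript was not made. In control islets with azoramide Sf3b6 was highest at 44.1 ± 1.9 CPM per kb, ahead of Sf3b1 at 39.7 ± 1.2, Snrpf at 34.7 ± 2.1, Snrpb at 30.8 ± 2.1, Sf3b2 at 28.1 ± 1.2 and Snrpn at 26.2 ± 2.2 (SD, n = 3). In control islets with DMSO the order was Sf3b1 at 38.7 ± 2.7, Sf3b2 at 32.3 ± 1.6, Sf3b6 at 26.6 ± 1.1, Snrpb at 25.2 ± 0.4, Snrpn at 24.9 ± 1.8 and Snrpf at 23.4 ± 1.2 CPM per kb. With DMSO Snrpn differed from its neighbours Snrpb and Snrpf by less than its own SD. At the low end were Snrpc, at 3.22 ± 0.30 with azoramide and 2.65 ± 0.12 with DMSO, Lsm2, at 2.06 ± 0.35 and 2.19 ± 0.29, and Lsm11, at 0.55 ± 0.13 and 0.57 ± 0.11 CPM per kb. Sm ring partners, which assemble in equal number, differed in transcript level, from 10.8 (Snrpg) to 34.7 (Snrpf) CPM per kb with azoramide and from 7.1 (Snrpg) to 25.2 (Snrpb) with DMSO in control islets.

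Members with short transcripts had higher fold changes. Across the 34 genes, Spearman's rho of the log2 fold change with the length of the longest annotated transcript was -0.51 in labelled knockout and -0.45 in control islets, and across all 15084 tested genes with a length it was -0.33 and -0.39. With GC content it was -0.55 and -0.50 over the 34 genes and -0.35 and -0.31 over all. These are descriptions across genes measured in the same libraries. The 6 members with transcripts of up to 1000 bases had a median log2 fold change of 0.78 in labelled knockout and 0.65 in control islets, where all 862 genes of that length had 0.53 and 0.48. For the 9 members of 1000 to 2000 bases the medians were 0.43 and 0.31, where all 2590 such genes had 0.22 and 0.22. The 9 members of 2000 to 3000 bases were near all 3158 genes of that length, at 0.10 and 0.09 beside 0.08 and 0.08. For the 7 members of 3000 to 5000 bases the medians were 0.53 and 0.49, where all 5177 such genes had -0.07 and -0.08. Above 5000 bases, 3 members had 0.20 and 0.04, where all 3297 genes had -0.21 and -0.24. The medians of members thus did not fall steadily with length.

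**Figure D4:**
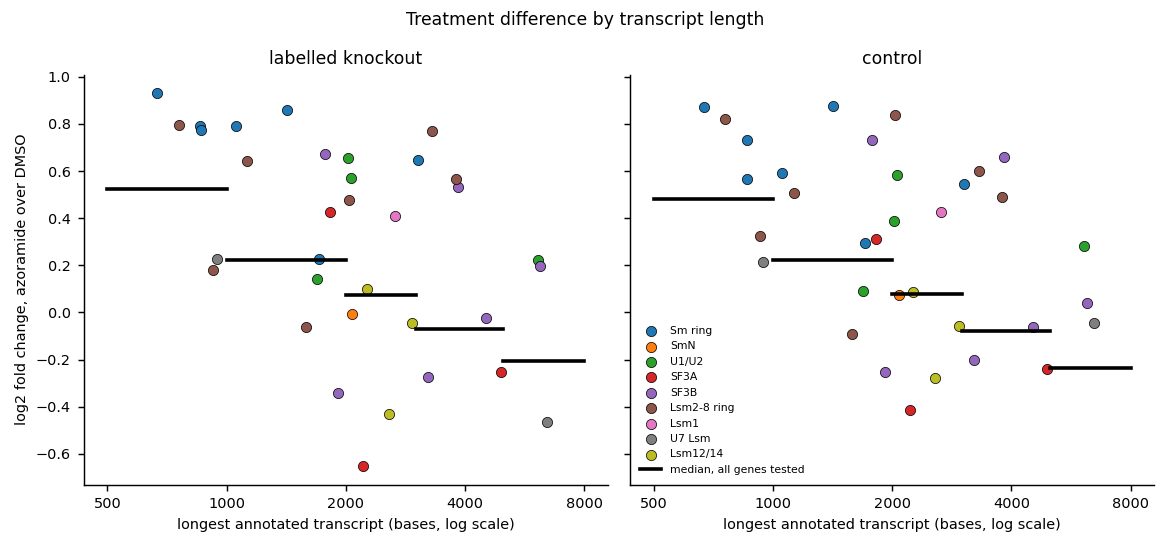
Log2 fold change of azoramide over DMSO against the longest annotated transcript of each of the 34 genes (log axis, bases), in labelled knockout (left) and control islets (right). Black bars are medians of all tested genes in 5 length classes, and fall from 0.53 to -0.21 in labelled knockout and from 0.48 to -0.24 in control islets.

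**Figure D5:**
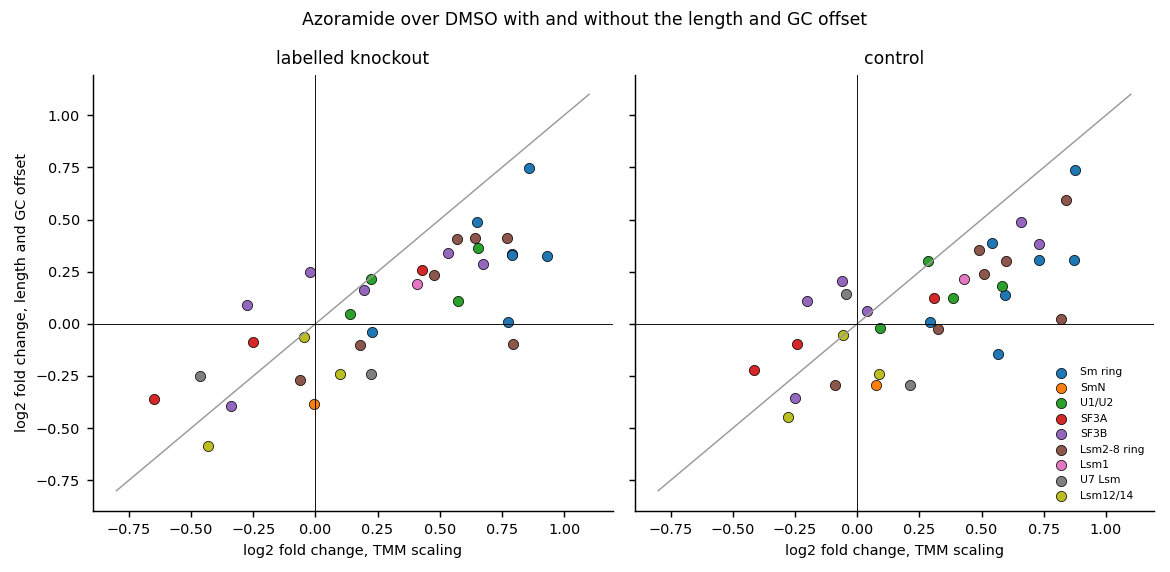
Log2 fold change of the 34 genes with the length and GC offset (vertical axis) against that with TMM scaling alone (horizontal axis), in labelled knockout (left) and control islets (right). The grey line marks equality; most Sm and Lsm ring genes lie below it, Snrpf and Lsm5 near 0 on the vertical axis, and Snrpd2 stays at 0.75 and 0.74.

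Between genotypes none of the 34 genes passed, with DMSO or with azoramide, and neither did any of the 15093 tested genes (0% of all genes, edgeR). At an unadjusted p under 0.05, 1 of the 34 passed with DMSO, where 3.52% of all genes did, and 1 with azoramide, where 5.0% did. DESeq2 called 0 of the 34, and 3 genes of the whole table with DMSO and 2 with azoramide. Without both libraries at the ends of the second component (control DMSO 2, labelled knockout azoramide 3), 49 genes of the whole table were higher and 35 lower with azoramide, and again 0 of the 34. With DMSO the 3 members of smallest p were Sf3a3 (log2 fold change, labelled knockout over control, -0.18, 95% interval -0.35 to -0.00), Snrpa1 (-0.20, -0.45 to 0.06) and Snrpg (-0.20, -0.49 to 0.08), with an edgeR adjusted p of 0.999. With azoramide they were Lsm3 (-0.37, -0.65 to -0.09, adjusted p = 0.958), Snrpf (0.14, -0.05 to 0.34) and Sf3b5 (-0.11, -0.30 to 0.08), both at an adjusted p of 0.968. Lsm3 thus had 16.2 ± 2.4 CPM in labelled knockout islets and 20.9 ± 1.1 CPM in control islets with azoramide (SD, n = 3 each), and these libraries did not overlap.

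In both comparisons 4 of the 34 genes did not overlap between genotypes. With DMSO these were 2 higher (Sf3a2 and Snrpb) and 2 lower (Sf3a3 and Lsm8) in labelled knockout islets, where 9.87% and 9.57% of all genes did so. With azoramide they were 1 higher (Sf3b1) and 3 lower (Lsm1, Lsm3 and Sf3b5), where 5.57% and 5.58% did so. The azoramide effect in labelled knockout minus that in control islets passed for 0 of the 34 genes and 0 of all genes (at an unadjusted p under 0.05, 0 members and 3.73% of all genes; DESeq2 also called 0). The smallest p among members belonged to Sf3b1 (given above), Lsm3 (-0.36, 95% interval -0.79 to 0.07) and Snrpa1 (0.27, -0.07 to 0.61), each at an edgeR adjusted p of 0.999. Gaps within the limits of each gene's interval were not excluded at this number of libraries.

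Partners of these proteins that the symbol rule leaves out were taken from 9 lists of 102 genes, of which 101 were tested. With azoramide 33 were higher and 14 lower in labelled knockout islets, where 20% of all tested genes were higher and 19.8% lower, and 34 higher and 16 lower in control islets, where 19.3% and 19.8% were. Plain library totals gave 22 higher and 29 lower in labelled knockout islets (all genes 12.4% and 30.1%) and 14 and 38 in control islets (all genes 10.8% and 32.8%), so the list and the whole table both moved toward lower calls. Under the offset 23 were higher and 10 lower in labelled knockout islets (all genes 12.6% and 11.3%), and 17 and 14 in control islets (all genes 11.7% and 10.8%). The counts of the single lists below, of 5 to 18 genes each, stand beside these shares of all genes, and no list was tested. They are from TMM scaling and changed with the offset. Higher calls under the offset, in labelled knockout and control islets, were 4 and 2 for snRNP assembly and 5 and 5 for Prp19-associated complexes. They were 7 and 5 for U5 and tri-snRNP, 4 and 2 for U2 partners and 1 and 1 for U1 partners. Minor-spliceosome genes had 0 and 1, U6 processing 0 and 0, and histone processing 2 and 1. Decapping had 0 higher and 2 lower in each. Of 18 genes of snRNP assembly and snRNA transport 7 were higher and 1 lower in labelled knockout islets, and 8 higher and 0 lower in control islets. They include Gemin6 of the SMN complex, which loads the Sm ring (log2 fold change 0.47 in labelled knockout and 0.52 in control islets), and Strap, a partner of that complex (0.43 and 0.38). With the offset Gemin6 stood at -0.04 and 0.02, and Strap at 0.13 and 0.10, not past the threshold.

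Of the 16 genes of the Prp19-associated complexes, which act as the spliceosome becomes active, 9 were higher and 0 lower in labelled knockout islets and 10 higher and 2 lower in control islets. Bud31 rose by 0.66 and 0.71 on the log2 scale in labelled knockout and control islets, and Plrg1 by 0.59 and 0.49, and both passed with the offset (Bud31 0.25 and 0.29, Plrg1 0.37 and 0.26). Of 18 genes of U5 and the tri-snRNP 6 were higher and 3 lower in labelled knockout islets, and 7 higher and 4 lower in control islets. Prpf8, the large protein at the heart of the U5 particle, fell by 0.57 and 0.46 on the log2 scale, whereas Snu13, which binds the U4 RNA, rose by 0.67 and 0.63, and each kept its direction and passed with the offset (Prpf8 -0.29 and -0.21, Snu13 0.37 and 0.35).

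Among 13 tested U2 partners 4 were higher and 2 lower in labelled knockout islets, and 3 higher and 3 lower in control islets. Phf5a, an SF3B subunit under another name, rose by 0.64 and 0.52, and U2af1, which reads the end of the intron, by 0.51 and 0.39; with the offset U2af1 passed at 0.47 and 0.31 and Phf5a, at 0.27 and 0.16, did not. Of 8 U1 partners 1 was lower in each genotype, Snrnp70, the large protein of the U1 particle, at -0.41 in labelled knockout and -0.44 in control islets; with the offset it turned to 0.07 in labelled knockout islets and stood at -0.02 in control islets. Of 8 minor-spliceosome genes 4 were higher in labelled knockout and 2 in control islets, with 0 lower. Zcrb1 rose by 0.38 and 0.32 (0.07 and 0.04 with the offset, not past the threshold), and Zmat5 rose by 0.72 in control islets and stood at 0.24 in labelled knockout islets (edgeR adjusted p = 0.24), or at -0.02 there with the offset.

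Of 5 genes that process U6 RNA 1 was higher and 2 lower in labelled knockout islets, and 1 higher and 1 lower in control islets, few genes beside the 20% higher and 19.8% lower of all tested genes in labelled knockout and 19.3% and 19.8% in control islets. Larp7 rose by 0.45 and 0.43, and Sart3, which recycles the U6 particle, fell by 0.35 and 0.47; with the offset Sart3 was at 0.02 and -0.16 and Larp7 at 0.12 and 0.11, and neither passed. None of the 9 genes of mRNA decapping, the process that the Lsm1 ring serves, was higher, and 4 were lower in each genotype. Edc4 fell by 0.39 and 0.42 and Patl1, which binds the Lsm1 ring, by 0.37 and 0.40 on the log2 scale in labelled knockout and control islets, and Patl1 passed with the offset (-0.46 and -0.48) while Edc4, at -0.05 and -0.14, did not. Of 6 genes of histone pre-mRNA processing 1 was higher and 1 lower in labelled knockout islets, and 2 higher and 1 lower in control islets, a count too small to set apart from those same shares. Cpsf3, the endonuclease, stood at 0.15 (edgeR adjusted p = 0.061) in labelled knockout islets and rose by 0.21 in control islets, with -0.01 and 0.04 under plain library totals. Sympk fell by 0.45 and 0.31 and turned to 0.06 and 0.14 with the offset, not past the threshold.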

How the data were processed

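The table the authors deposited holds unnormalized counts (whole numbers) of 32285 genes in 11 columns, 1 a library. STAR 2.7.2a, the mouse build mm10 and DESeq2 are named in the submitters' processing notes, without parameters. The sources used here do not give the counting tool, annotation, strand setting or treatment of multiply matching reads. Reads of overlapping genes and of near-identical copies can therefore not be told apart: 10 of the 34 genes have 17 copies of at least 95% identity over at least 200 bases, of which 1 has counts (2 in all) and the others were not analysed here.

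Gene positions, exonic lengths and GC content were read from GENCODE M21 on GRCm38 (mm10), 1-based, and promoters from the RefSeq table on GRCm38.p6. Groups and replicate numbers came from the sample titles. Tests used edgeR 4.0.16 in R 4.3.3: TMM scaling, the filter for low counts by group (15093 genes), 1 robust quasi-likelihood fit of 4 groups over 11 libraries and Benjamini-Hochberg adjustment over all tested genes, with a threshold of 0.05. SE is the absolute log2 fold change over the square root of F, and CPM are after TMM scaling. The offset is a loess trend (span 0.3) of each library's deviation on log2 exonic length and GC content. Counts summed over the 11 libraries ran from 729 (Lsm11) to 90443 (Sf3b1) per member, and the weakest have the widest intervals. All pairs of libraries within a group differed by more than sampling noise.

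The step was run on simulated counts with known changes in random directions and no trend on length or GC content. That run therefore cannot show whether calls that move with scaling or the offset hold. The members, role groups, lists and alternatives were chosen with earlier results of these data known. Values in every library are given, per role group, for up to 3 members of smallest p in control islets and up to 2 in labelled knockout islets, and for Snrpn and Sf3b1 (24 genes); in the genotype comparisons 3 members of smallest p are named, and in each partner list up to 2 of smallest p in control islets, of which 1 gene is not reported here. Genes in small counts outside this rule were named after their values were seen. Sf3b14 of the U2 list is an older symbol of Sf3b6 and is not in the table under that name. Alternatives were DESeq2 1.42.0 size factors and its Wald test, plain library totals, no filter, fits of the compared groups alone, a replicate block, the offset, both together, fits without each library and a fit without both libraries at the ends of the second component.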

Additional observations from a re-analysis of the deposited data

How the results depend on the processing

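Correlations of libraries with the same replicate number ran from -0.42 to 0.36 over 15 pairs, and of other pairs from -0.43 to 0.46 over 30. Within a genotype the 5 same-number pairs ran from -0.42 to 0.27. In control islets they were 0.20, 0.27 and 0.05, where other pairs of control azoramide and DMSO libraries ran from -0.24 to 0.15. The 2 labelled knockout DMSO libraries mirror each other once centred. These few values do not settle whether replicate numbers pair the samples. With a replicate block 19 members were higher and 5 lower in labelled knockout islets (all genes 3027 and 3020). In control islets 20 were higher and 5 lower (all genes 2883 and 2956), and 1 gene of the table was higher between genotypes with DMSO. Plain library totals gave 1866 higher and 4542 lower genes in labelled knockout islets and 1628 and 4943 in control islets. They turned Lsm12 to -0.058 and -0.080 and Snrpa to -0.015 and -0.073, and in control islets Sf3b1 to -0.13 and Snrpn to -0.093. The length and GC offset gave 1900 and 1711 genes, and 11 and 3 members, in labelled knockout islets, against 1768 and 1634 genes and 11 members higher in control islets. It turned Lsm12 (-0.24, -0.24), Lsm4 (-0.100, -0.023), Sf3b2 (0.092, 0.11), Sf3b3 (0.25, 0.21) and Lsm10 (-0.24, -0.29) in both, Lsm5 (-0.098) and Snrpb (-0.040) in labelled knockout islets, and Snrpn (-0.29), Snrpf (-0.15), Snrpa (-0.022) and Lsm11 (0.14) in control islets. With block and offset together 1844 genes were lower in labelled knockout islets, with 12 members higher and 3 lower, and 1789 were higher and 1697 lower in control islets, with 11 members higher; 1 gene was higher between genotypes with DMSO. The turned values were then Lsm12 (-0.22, -0.24), Lsm4 (-0.082, -0.022), Sf3b2 (0.098, 0.11), Sf3b3 (0.26, 0.21), Lsm10 (-0.29, -0.30), Lsm5 (-0.058), Snrpb (-0.051), Snrpn (-0.29), Snrpf (-0.15), Snrpa (-0.018) and Lsm11 (0.14). Snrpn, near 0 in labelled knockout islets, was at 0.0023 with DESeq2 size factors, 0.0024 with DESeq2, 0.00074 without the filter and 0.021 without both libraries that stand apart, which also turned Sf3b1 (-0.019) and Lsm11 (0.066) in control islets. Between genotypes DESeq2 called 3 genes lower with DMSO and 1 higher and 1 lower with azoramide, and no filter 2 lower with DMSO. Without both libraries the counts were 1 and 1 with DMSO, 49 and 35 with azoramide and 4 and 2 for the difference in azoramide effect. Leaving out 1 library at a time gave 16 to 19 members higher and 4 to 5 lower in labelled knockout islets, and 17 to 20 and 2 to 5 in control islets. All genes ran from 2074 to 3264 higher and 1941 to 3243 lower in labelled knockout islets, lowest without its DMSO library 2, and from 2398 to 3006 and 2413 to 3097 in control islets. Between genotypes they were 0 to 1 higher and 0 to 3 lower with DMSO, 0 to 3 higher with azoramide, and 0 to 1 each way for the difference. Such fits turned the sign of Sf3b3 (-0.049 to 0.0084), Lsm2 (-0.17 to 0.085) and Snrpn (-0.054 to 0.027) in labelled knockout islets, and of Lsm11 (-0.22 to 0.10), Lsm2 (-0.21 to 0.029), Sf3b1 (-0.019 to 0.072) and Snrpa (-0.011 to 0.21) in control islets, none past the threshold. The cause of these changes was not tested.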

Other observations

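Genes that share exonic bases with a member on the other strand gave these values with azoramide over DMSO. Plekhj1, opposite Sf3a2, was at 0.17 in labelled knockout and 0.07 in control islets on the log2 scale and did not pass, while Sf3a2 fell. Gucd1, opposite Snrpd3, was at 0.06 and -0.05 and did not pass, while Snrpd3 rose. BC024978, opposite Snrpa over 327 bases, fell by 0.52 in control islets (edgeR adjusted p = 0.013) and stood at -0.32 in labelled knockout islets (0.15), while Snrpa did not pass. Gm17690, opposite Sf3b4 over 85 bases, was at -0.34 in labelled knockout islets (0.14) and fell by 0.43 in control islets (0.043), the direction of Sf3b4. Snurf and Gm38393 share exons with Snrpn on the same strand; Gm38393 had 10.8 to 12.7 CPM in labelled knockout islets with azoramide and 10.6 to 11.7 CPM with DMSO, and 11.01 to 12.4 CPM in control islets with azoramide and 9.2 to 12.8 CPM with DMSO.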
